A study of Mus musculus with 16 samples.

Results

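The genes described here mark B lymphocytes and their precursors: Vpreb1, Igll1 and Vpreb3 for precursor stages (pre-B genes), and Cd79a, Cd79b, Ms4a1, Blk, Pax5 and Pou2af1 for the B lineage more widely (other B genes). They were found on the array by gene name or older synonym, which gave 12 non-control probes for the 9 genes among 41174 non-control probes, 5 probes for the 3 pre-B genes and 7 for the 6 other B genes. All 9 genes passed the filter on dim probes and were among the 21631 genes tested. The list was drawn up with earlier results of these data in view, so the members' counts describe them and support nothing beyond that.

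Whole lungs came from BALB/c mice aged 3 days. They had spent 3 h in ozone at 1000 ppb or, as controls, in filtered air for the same time. The 4 groups were ozone at 6 h, air at 6 h, ozone at 24 h and air at 24 h after the exposure ended, with 4 lungs and 4 arrays in each. Air controls were littermates, all pups stayed with a foster dam during the exposure, and the 2 time points were run as separate experiments, each with its own air controls. The labels name no engineered allele, the tissue was unsorted, and each lung was hybridised alone in 1 colour. A change in a B cell transcript in whole lung can reflect the number of cells or the RNA in each cell, and the 2 cannot be told apart here. Values are log2 of the background-corrected signal minus the 75th percentile of the same array, so a value of 0 is the signal at that percentile, and changes are differences of group means on this scale.

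B cells arise in fetal liver and bone marrow from pro-B and pre-B cells. In pre-B cells the products of Vpreb1 and Igll1 form a surrogate light chain that pairs with the first heavy chain, and this pre-B receptor signals through Cd79a and Cd79b, the chains that also signal for the mature receptor. Later the surrogate light chain is lost, while Cd79a, Cd79b and the surface protein CD20, the product of Ms4a1, remain. Vpreb3, which resembles the surrogate light chain proteins, binds immunoglobulin chains inside precursor and immature B cells. Pax5 is the transcription factor that commits cells to the lineage, Blk is a Src-family kinase, and Pou2af1 is a coactivator that joins octamer-binding factors on immunoglobulin promoters. Lymphocytes are a small part of the cells of newborn lung.

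The probes that carry the results were checked for where they lie in the mm9 mouse build used by the array design. The brighter Vpreb3 probe lies at chr10:75412265-75412324 on the plus strand and the dimmer at chr10:75412043-75412102. The Cd79b probe lies at chr11:106172780-106172839 and the Vpreb1 probe at chr16:16868559-16868618, both on the minus strand. The brighter Ms4a1 probe lies at chr19:11325367-11325426 and the dimmer at chr19:11325827-11325886, also on the minus strand, and the Pou2af1 probe at chr9:51048108-51048167 on the plus strand. The first 30 of the 60 bases of each are given because the 2 probes of Vpreb3 and of Ms4a1 read different parts of their transcripts, so that each pair measures 1 gene by separate sequences.
Vpreb3 brighter probe: ttttctcttaagtcttgctttctttccttc
Vpreb3 dimmer probe: tactattacgcagaagaggaacactatcgg
Cd79b probe: agagacttgttggaatctgcaaatggactc
Vpreb1 probe: aggggtagaacgtgaggttttgcagagcct
Ms4a1 brighter probe: gctgtgctttgagattctttccaaatggca
Ms4a1 dimmer probe: taatggtttttccgcatttcctccatcagc
Pou2af1 probe: gtcttggctgcaggcatccaaacagatttc
The probes of Cd79a (chr7:25684353-25684610, plus strand), Blk (chr14:63997333-63998470, minus strand) and Pax5 (chr4:44550354-44582908, minus strand) span 258, 1138 and 32555 bases of genome for 60 bases of probe, and so cross an intron. The 2 probes of Igll1 lie at chr16:16861104-16861163 and chr16:16862273-16862332 on the minus strand.

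On every one of the 16 arrays, 7 of the 12 probes were well above background, and they cover 5 genes: Vpreb1, Vpreb3, Cd79b, Ms4a1 and Pou2af1. Igll1, Cd79a, Blk and Pax5 were dim. At 6 h the Blk probe, the Pax5 probe and the dimmer Igll1 probe were well above background on 1 of 4 ozone arrays, ozone replicate 3, and on 0 of 4 air arrays. The ozone array had 82.2% of its spots well above background, against 63.5% to 70.7% on the other 6 h arrays.

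**Figure D1:**
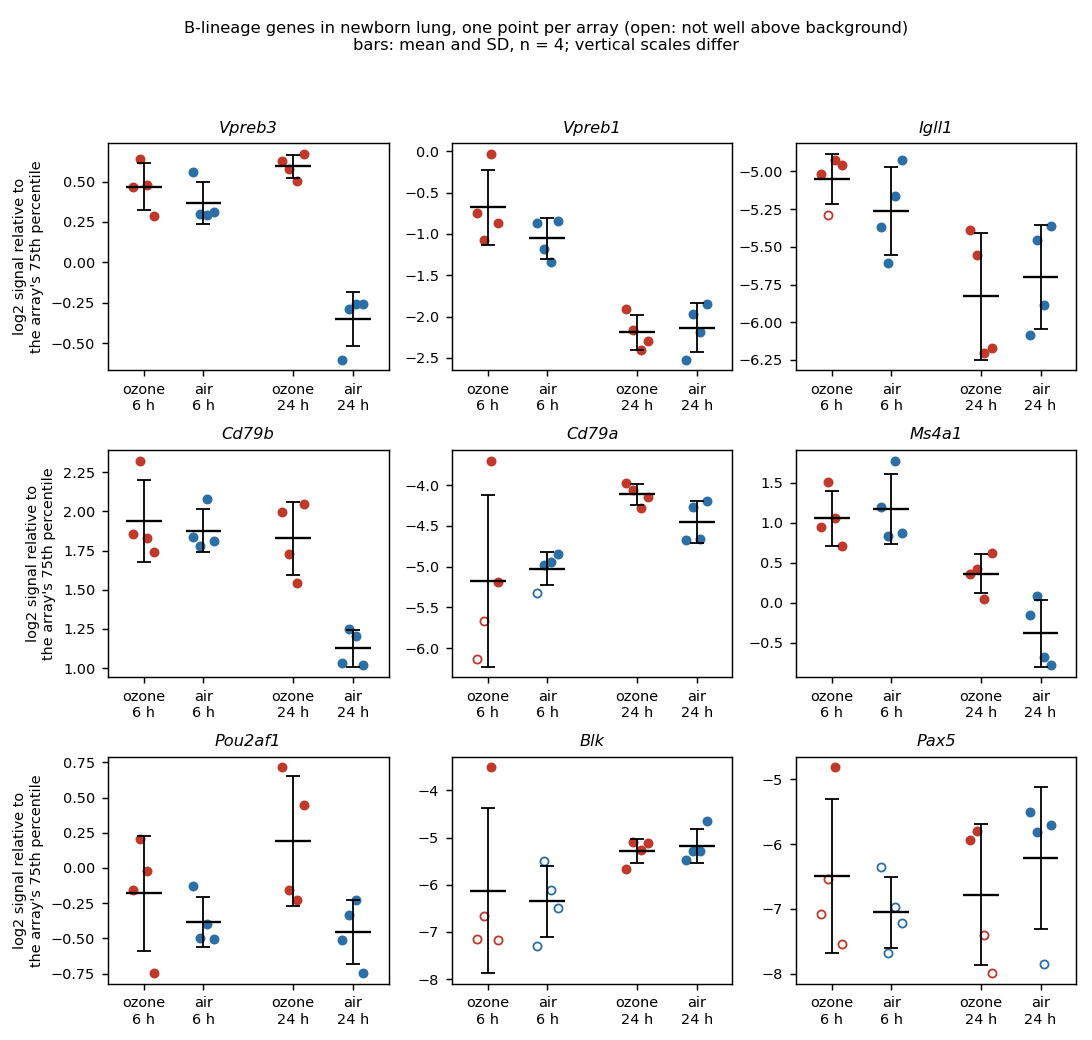
Log2 signal relative to the array's 75th percentile (vertical axes, scales differ between panels) for the 9 genes in ozone and air lungs at 6 h and 24 h, with 1 point per array, open where the probe was not well above background, and bars for the mean and SD (n = 4). At 24 h the ozone points of Vpreb3 and of Cd79b all lie above the air points, while those of Vpreb1 overlap.

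At 24 h, 2 of the 9 genes rose in ozone lungs and none fell, against 0.689% of all tested genes called higher and 1.32% called lower (limma, Benjamini-Hochberg adjusted p below 0.05). The 2 genes were Vpreb3, 1.93-fold higher, and Cd79b, 1.63-fold higher. Ms4a1 and Pou2af1 had changes of 0.75 and 0.65 but did not pass the threshold, and Vpreb1, Igll1, Blk and Pax5 had changes at or below 0. At 6 h no member passed.

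Vpreb3 had values of 0.63, 0.58, 0.50 and 0.67 in the 4 ozone lungs at 24 h, against -0.60, -0.28, -0.26 and -0.26 in the 4 air lungs. The groups did not overlap, and the gap between the lowest ozone lung and the highest air lung exceeded the whole range of either group. The change was 0.94 ± 0.095 (SE, 95% interval 0.74 to 1.14, adjusted p = 0.000159). At 6 h the values were 0.47, 0.64, 0.48 and 0.29 in ozone lungs and 0.56, 0.30, 0.29 and 0.31 in air lungs, which overlap, and the change was 0.10 ± 0.095 (adjusted p = 0.553). In order of their means the groups ran ozone at 24 h (0.59 ± 0.072, SD, n = 4), ozone at 6 h (0.47 ± 0.14), air at 6 h (0.37 ± 0.13) and air at 24 h (-0.35 ± 0.17), and the first 3 overlap while air at 24 h lies below all others. Air at 24 h was thus the group that stood apart, with the limit that 6 h and 24 h were separate runs.

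The dimmer Vpreb3 probe had -1.38, -1.61, -1.62 and -1.50 in ozone lungs at 24 h, against -2.38, -2.18, -2.22 and -2.10 in air lungs. Again the groups did not overlap, and the change was 0.69 ± 0.21 (SE, adjusted p = 0.121 over all probes), which missed the threshold with a larger error than that of the brighter probe. At 6 h its change was -0.14 ± 0.21, with air replicate 1 at -0.93 and the other 3 air arrays between -2.19 and -2.01. Air replicate 1 was also the highest 6 h air array on the brighter probe. Over the 16 arrays, after subtracting the mean of each time point, the 2 probes had Pearson's r = 0.748 and Spearman's rho = 0.815.

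Cd79b, the chain that carries the receptor's signal with Cd79a, had 1.99, 1.73, 1.54 and 2.04 in ozone lungs at 24 h, against 1.03, 1.25, 1.20 and 1.02 in air lungs. No ozone lung was as low as any air lung. The change was 0.70 ± 0.13 (SE, 95% interval 0.43 to 0.97, adjusted p = 0.0052). At 6 h ozone lungs had 1.86, 2.32, 1.83 and 1.74 and air lungs 1.84, 1.78, 2.08 and 1.81, a change of 0.061 ± 0.13 (adjusted p = 0.801). The order of the means matched that of Vpreb3 in its last place only: ozone at 6 h (1.94 ± 0.26, SD, n = 4), air at 6 h (1.88 ± 0.14) and ozone at 24 h (1.83 ± 0.23) overlap one another, and air at 24 h (1.13 ± 0.12) lies below them all. Vpreb3 and Cd79b were the 2 of 9 members whose tested probe gave groups that did not overlap with ozone higher at 24 h, against 6.8% of all tested genes.

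Ms4a1, which encodes CD20, had 0.36, 0.43, 0.040 and 0.62 in ozone lungs at 24 h, against -0.16, 0.076, -0.69 and -0.78 in air lungs. The groups overlapped by 1 pair, ozone replicate 3 and air replicate 2. The change was 0.75 ± 0.22 (SE, 95% interval 0.28 to 1.22, adjusted p = 0.105), close in size to that of Cd79b with a wider spread. The dimmer Ms4a1 probe had a change of 0.73 ± 0.25 (adjusted p = 0.207) and followed the brighter one over the arrays (r = 0.906, time points centred, n = 16). At 6 h the brighter probe had 0.94, 1.51, 1.05 and 0.70 in ozone lungs and 1.19, 0.83, 1.78 and 0.87 in air lungs, a change of -0.12 ± 0.22 (adjusted p = 0.785).

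Pou2af1, the octamer coactivator, had 0.72, -0.16, -0.23 and 0.45 in ozone lungs at 24 h, against -0.51, -0.33, -0.23 and -0.75 in air lungs. Ozone replicates 1 and 4 stood above the other 6 arrays, and the groups met at the lowest ozone and the highest air lung. The change was 0.65 ± 0.21 (SE, 95% interval 0.21 to 1.09, adjusted p = 0.142). At 6 h it was 0.21 ± 0.21 (adjusted p = 0.594), with ozone lungs from -0.75 to 0.21 and air lungs from -0.51 to -0.13.

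Vpreb1, which encodes a part of the surrogate light chain, had -1.91, -2.16, -2.40 and -2.29 in ozone lungs at 24 h, against -2.52, -1.97, -2.19 and -1.85 in air lungs. The groups overlapped throughout, and the change was -0.057 ± 0.20 (SE, adjusted p = 0.966). Its 95% interval of -0.48 to 0.36 does not reach the change of Vpreb3. At 6 h it had -0.75, -1.07, -0.031 and -0.87 in ozone lungs, against -0.86, -1.18, -1.34 and -0.84 in air lungs. This was the 6 h change with the lowest p among the members, 0.38 ± 0.20 (adjusted p = 0.288), and it rested in part on ozone replicate 3, the array with the most spots above background, without which it was 0.16.

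Igll1, which encodes the other part of the surrogate light chain, had a change of -0.13 ± 0.28 at 24 h (SE, adjusted p = 0.934), with ozone lungs from -6.20 to -5.39 and air lungs from -6.09 to -5.37. At 6 h its change was 0.21 ± 0.28 (adjusted p = 0.684). Its 2 probes followed each other weakly (r = 0.320, time points centred, n = 16), and both were dim. Both were matched to Igll1 by gene symbol alone. Cd79a had -3.98, -4.06, -4.28 and -4.14 in ozone lungs at 24 h, against -4.68, -4.27, -4.66 and -4.20 in air lungs. Although 3 of its 4 ozone lungs lay above all air lungs, the change was 0.34 ± 0.37 (adjusted p = 0.814), with a spread set in part by the 6 h arrays, where its SD in ozone lungs was 1.06.

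Blk was well above background on all 8 arrays of 24 h and on 1 of 8 at 6 h. Ozone lungs at 24 h had -5.67 to -5.09 and air lungs -5.49 to -4.66, a change of -0.11 ± 0.63 (SE, adjusted p = 0.984). Pax5 was well above background on 2 of 4 ozone and 3 of 4 air arrays at 24 h, with a change of -0.56 ± 0.68 (adjusted p = 0.845). At 6 h the measured means of Blk were -6.12 in ozone lungs and -6.35 in air lungs, and those of Pax5 -6.49 and -7.06 in the same order, and no fold is given because the air arrays were not well above background. The 95% intervals of the 24 h changes ran from -1.43 to 1.21 for Blk and from -2.00 to 0.87 for Pax5.

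**Figure D2:**
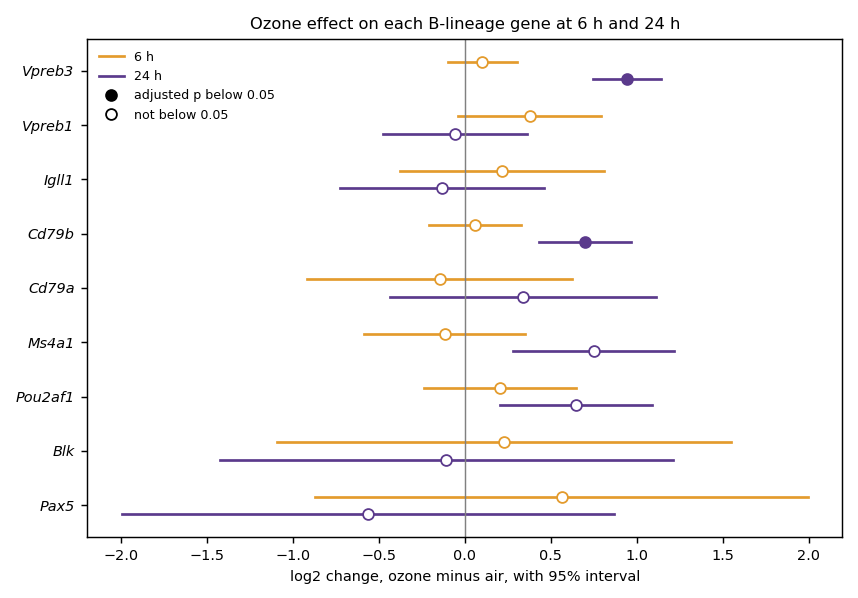
Log2 change, ozone minus air, of each gene (horizontal axis) at 6 h and 24 h with its 95% interval from limma, filled where the adjusted p was below 0.05. Vpreb3 and Cd79b at 24 h are the filled points, and the intervals of Blk and Pax5 are the widest of the 9 genes. The 6 h points of Blk and Pax5 are not measured changes, since 0 of 4 air arrays were well above background for them.

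At 6 h, 0 of 9 members were called by limma, against 4.48% of all tested genes called in either direction, and 0 of 9 had an unadjusted p below 0.05. At 24 h, 4 of 9 had an unadjusted p below 0.05 with ozone higher (Vpreb3, Cd79b, Ms4a1 and Pou2af1), against 8.25% of all tested genes. The median change of the 9 members at 24 h was 0.34, against 0.024 over all tested genes, and it was -0.30 when background was corrected by normexp, which moved the median of all genes to -0.13. Under that correction Vpreb3 and Cd79b stayed called, and the means of the dim genes Igll1, Blk and Pax5 carried an SD of 0.98 to 1.00 in air lungs at 24 h. With only the 5 genes well above background on all arrays the median was 0.70. At 6 h the median was 0.21, against 0.072 over all tested genes, and 0.096 without ozone replicate 3.

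Whether the ozone effect itself differed between the time points was tested by the contrast of the 2 effects. Vpreb3 was the 1 member called, against 0.0647% of all tested genes called in either direction, with an effect larger by 0.84 ± 0.13 at 24 h than at 6 h (SE, adjusted p = 0.0292). The call was lost when any 1 of 7 arrays was left out, with differences of 0.76 to 0.86 and adjusted p of 0.0535 to 0.0809: ozone replicate 3 and air replicate 4 of 6 h, and ozone replicates 1, 2 and 4 and air replicates 1 and 2 of 24 h. It was also lost with the array median as the scale (adjusted p = 0.125) and with replicate number as a block (adjusted p = 0.117). The same held with the mean of a gene's probes (adjusted p = 0.0987) and with eBayes without trend (adjusted p = 0.0875). The differences for Cd79b (0.64 ± 0.18, adjusted p = 0.152) and Ms4a1 (0.87 ± 0.31, adjusted p = 0.258) did not pass. For Vpreb1 the difference was -0.43 ± 0.28 (adjusted p = 0.55).

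In air lungs, 24 h was set against 6 h to show the members' levels in unexposed lungs. Each time point had its own slides and run, so time and run cannot be told apart, and 49.9% of all tested genes were called in this comparison, 28.5% as lower at 24 h. Of the 9 members 4 were lower at 24 h, with changes of -1.55 ± 0.22 for Ms4a1, -1.08 ± 0.20 for Vpreb1, -0.75 ± 0.13 for Cd79b and -0.72 ± 0.095 for Vpreb3 (SE), each on the brighter probe where a gene has 2. Their adjusted p ran from 6.87e-06 to 2e-04. The dimmer probes had smaller changes, -0.75 ± 0.25 for Ms4a1 (adjusted p = 0.019 over all probes) and -0.43 ± 0.21 for Vpreb3 (adjusted p = 0.0949), where the groups overlapped. Pou2af1 had a change of -0.069 ± 0.21 (adjusted p = 0.807). No 6 h air array measured Blk, so its means in air give only a bound, 1.47-fold brighter at 24 h than at 6 h. This bound takes no account of the spread between lungs, so it is no lower limit on the change. The fitted change of Blk, 1.17 ± 0.63 (SE, adjusted p = 0.131), did not pass the threshold. In ozone lungs the change between the times was not tested. The means there at 24 h and 6 h were -2.19 and -0.68 for Vpreb1, 0.59 and 0.47 for Vpreb3 and 1.83 and 1.94 for Cd79b.

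The pre-B genes did not move as 1 group. At 24 h, 1 of 3 rose (Vpreb3), with a median change of -0.057 over the 3. Of the 6 other B genes 1 rose (Cd79b), with a median change of 0.49. Of all tested genes 0.689% were called higher. The mean of the 3 pre-B genes minus that of the 6 others was taken within each array. At 24 h it was -0.17 ± 0.065 in ozone lungs and -0.13 ± 0.29 in air lungs (SD, n = 4 each), which overlap. At 6 h it was 0.74 ± 0.56 in ozone lungs and 0.64 ± 0.25 in air lungs. The 6 h values include Blk and Pax5, each well above background on 0 of 4 air arrays and on 1 of 4 ozone arrays, replicate 3. That array had 0.036, against 0.563 to 1.187 on the other 6 h ozone arrays. Only the contrast between groups has meaning in these values, since each probe has its own brightness. The change of this difference with ozone, -0.042 at 24 h, was smaller than the SD within groups of 0.339, and it was 0.17 within the slide of replicates 1 and 2 and -0.25 within the other slide. Over the 5 members well above background on all arrays, Vpreb1 and Vpreb3 minus Cd79b, Ms4a1 and Pou2af1, it was -1.59 ± 0.21 in ozone lungs and -1.34 ± 0.34 in air lungs at 24 h, a change of -0.26 with groups that overlap, and the change was 0.19 at 6 h. Within the pre-B genes the difference Vpreb1 minus Vpreb3, chosen after the values were seen, was -2.53, -2.74, -2.90 and -2.97 in ozone lungs at 24 h, against -1.92, -1.69, -1.93 and -1.60 in air lungs. These groups did not overlap, and at 6 h they did, with -1.15 ± 0.49 in ozone lungs and -1.42 ± 0.20 in air lungs.

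**Figure D3:**
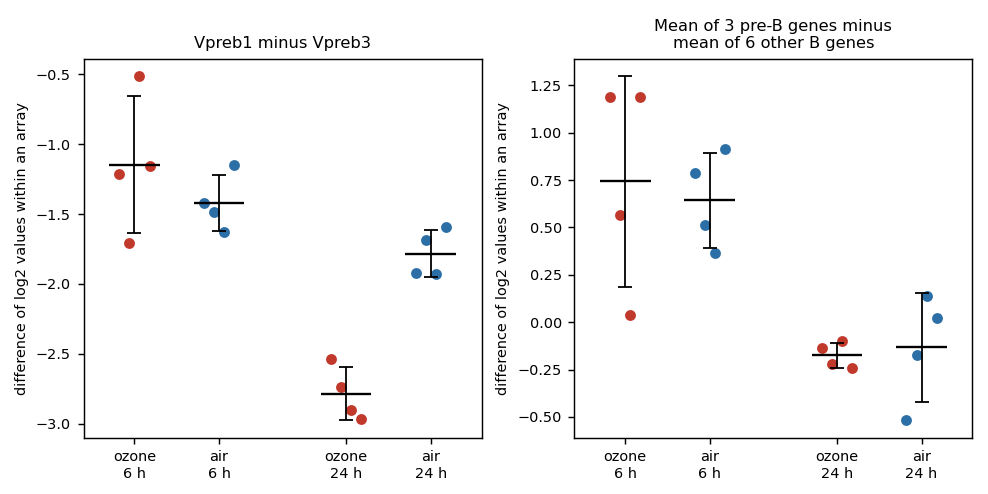
Differences of log2 values within each array (vertical axes, the zero point depends on probe brightness) for Vpreb1 minus Vpreb3 and for the mean of the 3 pre-B genes minus the mean of the 6 other B genes, with 1 point per array and bars for the mean and SD (n = 4). Ozone lungs at 24 h lie below all other groups for Vpreb1 minus Vpreb3, while the mean difference overlaps between ozone and air at both times. At 6 h the mean difference includes Blk and Pax5, for which 0 of 4 air arrays were well above background.

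Across the 16 arrays, with the mean of each time point subtracted, Cd79b followed Vpreb3 (r = 0.877), Pou2af1 (r = 0.844) and Ms4a1 (r = 0.83). Vpreb1 had r between -0.265 and 0.177 against the other 4 genes that were above background on all arrays. These values are descriptions, since the arrays share scaling and the ozone effect enters them: with the mean of each group subtracted instead, r between Cd79b and Vpreb3 was 0.529, between Cd79b and Pou2af1 0.766 and between Cd79b and Ms4a1 0.722. In that centring r between Vpreb1 and Vpreb3 was 0.361, in place of 0.0876, and r between Vpreb3 and Ms4a1 was 0.164, in place of 0.631.

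Among 13774 other genes above background on all arrays, those most like the mean of the 9 members were Ly9 (r = 0.922), a receptor of lymphocytes, Stat4 (r = 0.906), Hsh2d, Myo7b, H2-DMa and Irf5, over 16 arrays with time points centred. For the mean of the pre-B genes they were C8g, Slc16a8 and Cdk2ap2 (r from 0.835 to 0.853), and for the other B genes Myo7b, Ly9 and Tespa1 (r from 0.911 to 0.935). Since dim probes weigh on those means, the search was repeated after the values were seen with Cd79b, Ms4a1 and Pou2af1 alone. It gave Mzb1 (r = 0.962), a chaperone of B cells and plasma cells, Fcrla (r = 0.958), Ltb (r = 0.952), the lymphotoxin chain, Tnfrsf13c (r = 0.929), Ighm (r = 0.925), the IgM heavy chain, and Fcmr (r = 0.921), the IgM Fc receptor. When each group's mean was subtracted instead, 5 of these 6 were again among the 6 most alike, and 3 of 6 for the mean of all 9 members, 2 of 3 for the other B genes and 0 of 3 for the pre-B genes.

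Other genes of the lineage were taken from lists that were also written with earlier results known. Of 23 further B cell genes tested, 4 rose and none fell at 24 h, and the list median was 0.46, where 0.689% of all tested genes were called higher. At an unadjusted p below 0.05, 12 of 23 were higher, against 8.25% of all tested genes. The 4 called were Fcmr (0.82 ± 0.19, adjusted p = 0.0289), Tnfrsf13c, the BAFF receptor (0.79 ± 0.18, adjusted p = 0.0308), Blnk, the adaptor below the B cell receptor (0.64 ± 0.15, adjusted p = 0.0334), and Fcgr2b, an inhibitory Fc receptor also found on macrophages (0.40 ± 0.099, adjusted p = 0.049; errors are SE). Tnfrsf13c lay between -1.52 and -0.79 in ozone lungs at 24 h, against -2.07 to -1.81 in air lungs, and at 6 h it lay between -1.84 and -1.08 in ozone lungs and between -1.68 and -1.18 in air lungs. Ighm had 3.19 to 3.84 in ozone lungs at 24 h and 2.59 to 2.98 in air lungs, groups that did not overlap, with a change of 0.70 ± 0.18 that missed the threshold (adjusted p = 0.0596). At 6 h, 0 of the 23 were called by limma, against 4.48% of all tested genes called in either direction. At an unadjusted p below 0.05 it was also 0 of the 23, against 10.2% of all tested genes with ozone higher.

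Of 11 further genes of pro-B and pre-B cells, 0 were called at either time by limma. Of all tested genes 4.48% were called at 6 h, and at 24 h 0.689% were called higher and 1.32% lower. At shares this low, a count of 0 of 11 says little about these genes. Their median change at 24 h was 0.050, with 9 of 11 changes above 0. Whole lung does not show which cells these transcripts came from, so this median is no measure of B cell precursors alone. At an unadjusted p below 0.05, 2 of 11 were higher at 24 h, against 8.25% of all tested genes, and 3 of 11 at 6 h, against 10.2%. The 2 at 24 h were Il7r (0.60 ± 0.19, adjusted p = 0.143), the receptor for interleukin-7, and Rag1, which cuts the receptor genes. No fold is given for Rag1, because at 24 h its probe exceeded background clearly in 2 of 4 ozone lungs and in 0 of 4 air lungs. Of 8 plasma cell genes 1 rose at 24 h, Mzb1 (0.57 ± 0.14, limma adjusted p = 0.0374), where 0.689% of all tested genes were called higher. Of 10 genes for attraction and survival of B cells 1 rose at 24 h, the chemokine receptor Cxcr4 (0.75 ± 0.13, limma adjusted p = 0.00325), against the same share. At 6 h 1 of the 10 rose, the chemokine Ccl20 (1.86 ± 0.41, limma adjusted p = 0.0197), where 295 of 21631 tested genes were called higher.

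Some genes listed for other leukocytes rose with ozone at 24 h, where 0.689% of all tested genes were called higher by limma. Of 18 T cell genes 3 rose (Cd8b1, Lck and Cd5), with a list median of 0.34. At an unadjusted p below 0.05, 11 of 18 were higher, against 8.25% of all tested genes. The summed level of the list was 7.05 to 9.49 in ozone lungs and 6.22 to 6.52 in air lungs, in units of each array's 75th percentile signal. Of 10 pan-leukocyte genes 0 were called by limma, though 6 had an unadjusted p below 0.05 and all 10 had a change above 0 (median 0.29), with sums of 22.2 to 28.9 in ozone lungs and 20.6 to 22.8 in air lungs. The 23 further B cell genes summed to 23.2 to 30.5 in ozone lungs and to 18.5 to 21.9 in air lungs. Ighm (means of 3.49 in ozone and 2.79 in air lungs) and Cd24a (2.93 and 2.85), neither called, were the brightest of the 23. They weigh most in these sums. Of 9 genes listed for plasmacytoid dendritic cells 2 rose (Irf8 and Ly6d), with a list median of 0.287. Whole lung does not show which cells these transcripts came from, and 1 of the 9, Spib, is also in the B cell list. At an unadjusted p below 0.05, 3 were higher and 1 was lower. The list summed to 22.4 to 26.5 in ozone lungs and 21.8 to 23.1 in air lungs. Tcf4, its brightest gene, had a change of -0.155 ± 0.071 (SE, limma adjusted p = 0.353). Of 10 thymus genes, a tissue that can be taken along with neonatal lung, 2 rose (Cd1d1 and Cd8b1, which is also in the T cell list). The list median was 0.146, with 7 of 10 changes above 0. The list summed to 6.89 to 8.19 in ozone lungs and 5.32 to 5.91 in air lungs. Cd1d1 was its brightest gene, with means of 2.38 and 1.90, and weighs most in these sums. Ptcra, Psmb11, Prss16, Foxn1 and Ccl25 had changes from -0.21 to 0.185, none called. The thymus list, as written, shares Rag1, Rag2 and Dntt with the pro-B and pre-B list, and its 10 tested genes were uneven in level: Ccl25, Dntt, Cd8b1, Cd1d1 and Rmnd5a were well above background on all 16 arrays, Prss16 on 13, Psmb11 on 9, Ptcra on 8, Rag1 on 7 and Foxn1 on 5. The part of T cells, other leukocytes or thymus in the change of the B cell genes was not tested.

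Other lists moved the other way or were level. Of all tested genes 0.689% were called higher and 1.32% lower at 24 h by limma. Mitosis genes fell in 10 of 10 at 24 h (median -0.95). Erythroid genes fell in 2 of 13, Klf1 and Kel (median -0.39), and 0 of 12 genes of marrow-type neutrophils were called by limma, with 3 lower at an unadjusted p below 0.05 (median -0.20). Of 12 genes of lung structure 0 were called at 24 h, 1 was higher at an unadjusted p below 0.05, and the median change was 0.12. The part of these lists in the change of the B cell genes was not tested.

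**Figure D4:**
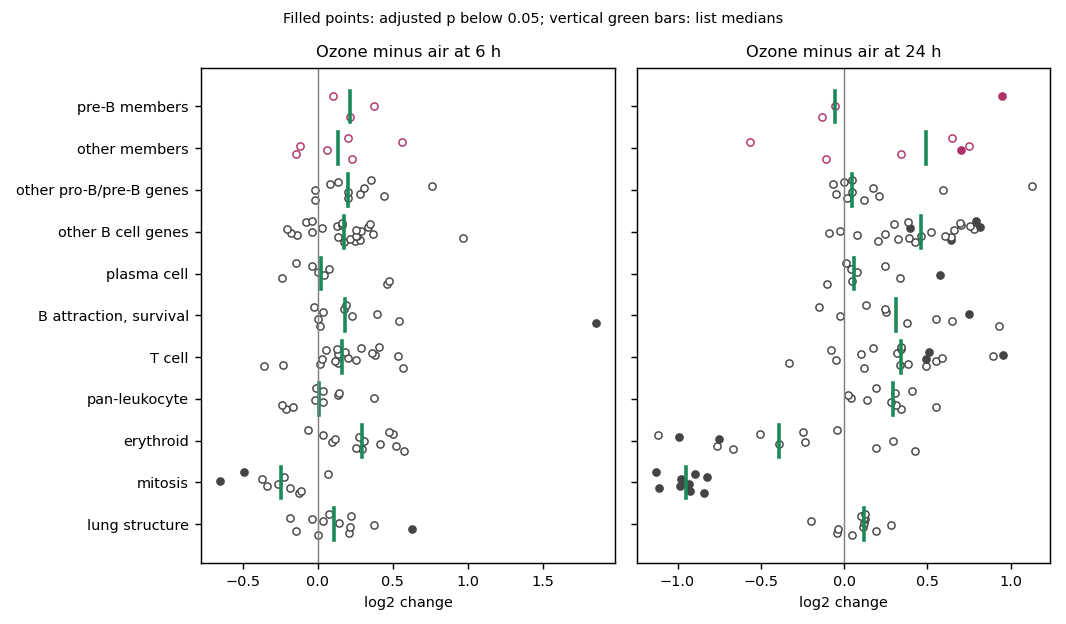
Log2 change, ozone minus air, of each gene (points, filled where the adjusted p was below 0.05) in the 9 members, shown in magenta, and in lists of other cell types at 6 h and 24 h, with green bars for list medians. At 24 h the other members and the other B cell genes have medians of 0.49 and 0.46, while the further pro-B and pre-B genes have a median of 0.050. Whole lung does not show which cells the transcripts of a list came from.

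The sequences before the start of Vpreb3 and Vpreb1 are given because these pre-B genes parted at 24 h. They are the 250 bases before the RefSeq start in build GRCm38.p6, which RefSeq's table holds for 6 of the 9 members, at chr10:75948050-75948299 (plus strand) for Vpreb3 and chr16:16869256-16869505 (minus strand) for Vpreb1. Capitals mark matches to the motifs searched.
Vpreb3: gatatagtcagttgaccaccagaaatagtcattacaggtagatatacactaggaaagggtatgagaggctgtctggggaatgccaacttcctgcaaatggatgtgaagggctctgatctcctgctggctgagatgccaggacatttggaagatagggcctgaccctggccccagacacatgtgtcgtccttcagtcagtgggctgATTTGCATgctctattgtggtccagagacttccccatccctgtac
Vpreb1: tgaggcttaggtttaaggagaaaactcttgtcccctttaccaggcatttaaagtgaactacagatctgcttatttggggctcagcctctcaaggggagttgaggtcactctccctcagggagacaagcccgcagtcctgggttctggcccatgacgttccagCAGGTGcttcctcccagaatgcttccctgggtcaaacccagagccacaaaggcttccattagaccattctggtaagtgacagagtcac
The motifs, searched on both strands, were the octamer ATGCAAAT, the ETS site GAGGAAGT, the TATA box TATAAA and the E-boxes CAGCTG and CAGGTG, and no 2 matches overlapped in the 6 promoters. Vpreb3 held the octamer, on the reverse strand and ending 37 bases before the start, and none of the others. Vpreb1 held 1 E-box CAGGTG, which Cd79a and Igll1 held as well, and Igll1 also held CAGCTG. Of 32851 promoter windows of that length 1.6% held the octamer, 17.2% CAGGTG and 13.0% CAGCTG. Pax5 and Pou2af1 held none of the motifs. A match describes these letters and shows no binding.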

How the data were processed

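Total RNA of whole lung, with RNA integrity values of 8.6 to 9.1 per the labels, was labelled with Cy3 and hybridised to Agilent arrays, 1 lung per array. Per the file headers the authors scanned the arrays with Agilent Feature Extraction 10.7.1.1, whose processed signal is an intensity after background subtraction and detrending, on a design placed on mm9. The deposited spot flags (well above background, saturated, uneven; coded 0 or 1, a unit of other kind) were used as they stand. The deposited value table is on a log2 scale with the centring unstated by the authors; its medians were 6.41 for 6 h and 6.73 for 24 h, so it was used only as an alternative within each time point.

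Log2 processed signals of spots of a probe were averaged, uneven spots left out, and each array's 75th percentile (574 to 946 in signal units) was subtracted. None of the spots was flagged as saturated. The filter kept 32343 probes that were flagged well above background on 4 or more of the 16 arrays, and the probe with the highest mean stood for a gene. Names in the files were updated through RefSeq's table by accession (25097 probes), symbol (6333) or older synonym (1640), and 8104 kept the file's name. A probe named Ms4a2, an older synonym of Ms4a1, is the separate gene Ms4a2 by its accession and was left out. One mean per group was fitted over all 16 arrays with limma 3.58.1 in R 4.3.3 (lmFit, eBayes with trend), and p-values were adjusted by Benjamini-Hochberg over all 21631 genes, with a threshold of 0.05; the procedure was tested on simulated data. The number of arrays limits precision: 4 per group, each group spread over 2 slides that hold ozone and air alike. The submitters' design states that the 4 lungs are separate mice. The members and all gene lists were chosen with earlier results of these data known. Every member is described. Of other lists, called genes and the 2 with the smallest p per comparison may be named. Further genes of the B cell, thymus and dendritic cell lists are named for their level, change or overlap. The most alike genes are the 6 (3 for the subsets) with the highest Pearson r. Groups follow the labels. Alternatives tried are normexp with an offset of 50, other scalings, filters, probe summaries and variance models, slide and replicate terms, Xist as a covariate, and leaving out each array.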

Additional observations from a re-analysis of the deposited data

Results flagged for a closer look

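In 6 of 52 groups of 4 arrays (12 probes and the difference of pre-B and other B genes in 4 groups each) 1 array lay far from the others by Dixon's 95% criterion, where 2.6 would be flagged at 1 in 20. Vpreb3 accounts for 3 of these, each an air array numbered replicate 1. On its brighter probe that replicate had 0.558 at 6 h, with the next array at 0.31, and the separate animal numbered 1 at 24 h had -0.602, with the next at -0.28. On its dimmer probe air replicate 1 of 6 h had -0.931, with the next at -2.01. Ms4a1 on its dimmer probe had -0.025 in air replicate 3 of 6 h, with the next at -0.90. Blk had -3.511 in ozone replicate 3 of 6 h, with the next at -6.67, on the array with the most spots above background. Pax5 had -7.853 in air replicate 3 of 24 h, with the next at -5.82.

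The ozone effect on Vpreb3 differed between the time points by 0.842 on the log2 scale, larger at 24 h than at 6 h (limma contrast of the 2 effects, adjusted p = 0.0292). The call was lost when any 1 of 7 arrays was left out and under 4 other alternatives, the replicate block among them (adjusted p = 0.0875 to 0.125).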

How the results depend on the processing

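The count of 2 members called at 24 h was 2 without each array in turn and 0 to 3 under the other alternatives, with 0 within the slide of replicates 1 and 2, where only 4 arrays remain. Vpreb3 at 24 h changed by 0.82 to 1.04 under 17 alternatives and was called in 16, and Cd79b by 0.64 to 0.77, called in 15; the lost calls were fits within 1 slide. Ms4a1 at 24 h was called with normexp (0.67, adjusted p = 0.0487) and within the slide of replicates 3 and 4 (1.07, adjusted p = 0.0387), with adjusted p up to 0.277 elsewhere. The 6 h count was 0 in every fit run. The median change of the members at 24 h was -0.303 with normexp and 0.7 over the 5 members above background on all arrays. The count of members whose ozone effect differed between the times, 1, was 2 with normexp, 0 with the median in place of the 75th percentile, with the mean of a gene's probes, with the replicate block and with eBayes without trend, and 0 to 1 without each array in turn. With normexp 536 genes were called in that contrast over all genes, against 14 in the fit reported, and the median of all genes moved to -0.21. The replicate block changed no call at 6 h or 24 h, and with it the Vpreb3 difference of 0.84 had an adjusted p of 0.117. Replicate numbers showed no clear pairing of the lungs: deviations of same-numbered ozone and air lungs correlated at -0.00696 to 0.195, and 3 of 8 ozone lungs matched their own number best. With so few lungs this check could not exclude a pairing by litter. Every ozone lung had its best match in an air lung of its own slide, so the arrays of a time point were not free of slide structure. The fit reported has no slide term. With slide as a block, Vpreb3 and Cd79b stayed called at 24 h. Members called between 24 h and 6 h in air numbered 4 to 6. Of 506 gene results under other alternatives 494 kept their side of the threshold, and of 576 without 1 array 567 did. None reversed while called, and 26 and 14 changed sign while not called. Many of these fits leave an estimate as it was: an array of 1 time point left out does not move the ozone change at the other. The totals are thus no measure of how sturdy a call is. Dim probes limit what can be said of Igll1, Cd79a, Blk and Pax5.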
